A study of Mus musculus with 29 samples.

Results

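Among the 110715 regions of 201 bp in which open chromatin was counted across mouse retinal cells, 8971 (8.10%) were open in ON and OFF bipolar cells and closed in rods, blue cones and green cones. They are called bipolar-only regions here. Openness was defined by the ATAC-seq peaks of each library. A population counted as open where the centre of the region lay in a peak of both of its replicates and as closed where it lay in a peak of neither, so the bipolar-only regions were chosen from the peaks of 10 libraries, and the levels in those libraries are given as a description with no test. For comparison, 18304 regions were open in all 5 populations, and 1865 were open in the 3 photoreceptor populations and closed in both bipolar populations (photoreceptor-only regions).

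Open chromatin was measured in 12 ATAC-seq libraries with a column in the table of regions, 2 for each of 6 sorted populations, namely bipolar cells as a whole (pan-BC), their ON and OFF classes (ON-BC and OFF-BC), and rods, blue cones and green cones, and gene expression in 15 RNA-seq libraries, 3 each from the same populations without green cones. Bipolar cells were sorted at postnatal day 42 to 48 from *Otx2*-GFP+/- mice, which carry GFP at the endogenous *Otx2* locus. For ON-BC and OFF-BC the mice were also *Grm6*-YFP+/+, with YFP driven by the *Grm6* promoter in ON bipolar cells, and cells of intermediate fluorescence are in neither group. Pan-BC and ON-BC were sorted once and OFF-BC were sorted a second time. The labels give both transgenes for the pan-BC ATAC-seq libraries and *Otx2*-GFP+/- alone for the pan-BC RNA-seq libraries. Rods came from *Nrl*-eGFP mice and green cones from *Opn1mw*-GFP mice, in both cases at day 56. The cells called blue cones came from *Nrl*-eGFP mice without *Nrl* (NrlKO), also at day 56, whose photoreceptors develop as blue cones, so they are a model of blue cones and not blue cones of a wild-type retina. The photoreceptor libraries were taken from an earlier study, so that cell class cannot be told apart from study or age in any comparison of bipolar cells with photoreceptors. Double-sorted green cones gave the peaks of 2 more libraries, which took no part in the choice of the regions, and neither did the pan-BC libraries or any RNA-seq library.

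Counted reads ranged from 4176776 to 12345845 per ATAC-seq library and from 12329548 to 26266746 per RNA-seq library. Replicates differed by more than the counting of reads, with a chi-square per feature of 2.33 to 4.28 for regions and 6.79 to 65.4 for genes, where 1 is the value from counting alone. The study calls the replicates biological, and the labels do not say whether they came from separate animals, so p-values measure the spread between these samples. In RNA-seq, the summed level of 10 bipolar markers, among them *Grm6*, *Trpm1* and *Grik1*, was 184983 to 205420 normalised reads in pan-BC, 196987 to 205186 in ON-BC and 130397 to 158092 in OFF-BC, and 8287 to 9294 in rods and 32937 to 38180.0 in blue cones. The 30 photoreceptor genes summed to 110587 to 148821 in pan-BC and 51172 to 57101 in ON-BC, to 51385 to 157106 in OFF-BC, and to at least 1936480 in every rod and blue cone library. All 30 were above 10 normalised reads in at least 1 pan-BC library, and their part in the results below was not tested. In such bulk samples fewer cells of a type and less RNA per cell cannot be told apart.

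Bipolar cells are the interneurons that carry the signals of rods and cones to the inner retina. ON bipolar cells respond to light through the metabotropic receptor encoded by *Grm6* and the channel encoded by *Trpm1*, whereas OFF bipolar cells use ionotropic glutamate receptors. ATAC-seq marks DNA that a transposase can reach, mostly promoters and enhancers, and the proteins bound there recognise short motifs. Photoreceptors and bipolar cells share the K50 homeodomain proteins OTX2 and CRX, which prefer TAATCC, while the bipolar factor VSX1 and the LHX proteins are Q50 homeodomain proteins that prefer TAATTA or TAATTG, and basic helix-loop-helix (bHLH) proteins such as NEUROD4 and BHLHE23 bind E-boxes, CANNTG.

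The bipolar-only regions nearest to genes with known roles in bipolar cells are shown first, because the account of levels and of RNA turns on them. For each gene it is the bipolar-only region with the highest mean pan-BC level among those nearest to its transcription start site (TSS). *Otx2*, *Grm6* and *Prkca* were also looked up, and none of their 14, 5 and 24 nearest regions was bipolar-only. Sequences are the plus strand of the RefSeq GRCm38 genome, 5′ to 3′. Capitals mark the K50 letters TAATCC, the Q50 letters TAATTA or TAATTG, and the E-boxes CAGATG and CAGCTG on either strand, so that GGATTA stands for the K50 letters on the other strand. Where a region runs into a coding transcript, as at *Trpm1*, only the part before the transcript is printed.
Vsx1 region, chr2:150712248-150712448: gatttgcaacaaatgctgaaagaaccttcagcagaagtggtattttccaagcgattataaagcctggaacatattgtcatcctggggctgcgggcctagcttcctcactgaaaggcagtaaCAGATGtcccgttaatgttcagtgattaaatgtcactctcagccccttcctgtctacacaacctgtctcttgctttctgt
Neurod4 region, chr10:130275866-130276066: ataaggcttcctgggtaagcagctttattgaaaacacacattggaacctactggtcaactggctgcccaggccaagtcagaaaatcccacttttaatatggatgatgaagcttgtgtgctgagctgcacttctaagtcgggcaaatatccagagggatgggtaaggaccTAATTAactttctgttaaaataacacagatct
Isl1 region, chr13:116508954-116509154: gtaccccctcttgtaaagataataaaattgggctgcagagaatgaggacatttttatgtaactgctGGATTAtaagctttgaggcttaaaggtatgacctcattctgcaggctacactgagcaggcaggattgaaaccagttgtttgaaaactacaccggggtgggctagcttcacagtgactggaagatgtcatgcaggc
Lhx3 region, chr2:26175396-26175596: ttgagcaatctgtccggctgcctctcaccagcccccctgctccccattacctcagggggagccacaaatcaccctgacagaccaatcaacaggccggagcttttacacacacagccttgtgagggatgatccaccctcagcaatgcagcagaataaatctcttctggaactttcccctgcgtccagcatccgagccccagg
Bhlhe23 region, chr2:180765134-180765334: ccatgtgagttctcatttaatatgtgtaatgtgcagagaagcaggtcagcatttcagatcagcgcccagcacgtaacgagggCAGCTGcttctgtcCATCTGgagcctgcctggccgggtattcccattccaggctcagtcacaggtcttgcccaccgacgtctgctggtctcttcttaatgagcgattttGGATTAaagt
Trpm1 region, chr7:64153724-64153834: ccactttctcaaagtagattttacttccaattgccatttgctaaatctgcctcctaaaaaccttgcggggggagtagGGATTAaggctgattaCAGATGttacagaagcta
Grik1 region, chr16:88360087-88360287: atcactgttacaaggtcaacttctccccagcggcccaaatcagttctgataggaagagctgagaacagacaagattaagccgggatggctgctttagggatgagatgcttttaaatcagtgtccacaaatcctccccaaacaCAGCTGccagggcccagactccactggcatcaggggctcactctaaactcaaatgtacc
Gabrr1 region, chr4:33125742-33125942: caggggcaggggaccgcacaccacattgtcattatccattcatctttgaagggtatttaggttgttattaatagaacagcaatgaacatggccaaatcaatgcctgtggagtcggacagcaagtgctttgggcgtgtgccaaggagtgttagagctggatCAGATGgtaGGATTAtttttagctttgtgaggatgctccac

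The region of *Trpm1*, centred 11 bp before its TSS, held both a K50 match and a CAGATG E-box, and so did the regions 6.71 kb before the TSS of *Gabrr1* and 11.7 kb after that of *Bhlhe23*, the last with a CAGCTG E-box as well. The *Vsx1* region, 23.2 kb before the TSS, held CAGATG, the *Grik1* region, 70.0 kb before it, held CAGCTG, the *Isl1* region, 199 kb before it, held a K50 match, and the *Neurod4* region, in an intron 4.17 kb after the TSS, held TAATTA. None of these letters occurred in the *Lhx3* region.

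The second set shows strong bipolar-only regions outside promoters, where a promoter runs from 1000 bp before to 100 bp after a TSS. They come from the 10 with the highest mean pan-BC level within 100 kb of the TSS of a gene that passed the RNA test in pan-BC against both rods and blue cones. The strongest of the 10, 307 bp after the TSS of *Sema3d*, lies in the first exon and is not printed.
Gpm6a region, chr8:55034355-55034555: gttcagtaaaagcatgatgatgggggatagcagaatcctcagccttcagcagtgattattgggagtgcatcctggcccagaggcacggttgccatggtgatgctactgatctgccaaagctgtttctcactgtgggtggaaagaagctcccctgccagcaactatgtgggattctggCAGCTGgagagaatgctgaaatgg
Gm20754 region, chr3:73158215-73158415: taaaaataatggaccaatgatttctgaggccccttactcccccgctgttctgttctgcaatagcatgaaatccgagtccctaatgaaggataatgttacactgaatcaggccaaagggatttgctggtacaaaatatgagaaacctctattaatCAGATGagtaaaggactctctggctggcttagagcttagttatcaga
Schip1 region, chr3:68590577-68590777: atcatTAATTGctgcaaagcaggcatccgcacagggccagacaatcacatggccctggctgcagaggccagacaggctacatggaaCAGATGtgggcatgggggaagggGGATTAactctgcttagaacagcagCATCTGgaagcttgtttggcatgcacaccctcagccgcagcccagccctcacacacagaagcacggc

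The region of *Gpm6a*, a membrane glycoprotein of neurons, lies in an intron 79.7 kb after the TSS, that of the predicted gene *Gm20754* in an intron 92.0 kb after its TSS, and that of *Schip1* in an intron 18.3 kb after its TSS. The *Schip1* region held 2 CAGATG E-boxes, a K50 match and a TAATTG.

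The levels of the bipolar-only regions followed from the way they were chosen. The median region had 65.7 and 71.7 normalised reads in the 2 ON-BC libraries and 48.5 and 38.9 in the OFF-BC libraries, where normalised reads are the counts divided by 1 size factor per library. The rod medians were 0 and 1.36, the blue cone medians 2.59 and 2.89 and the green cone medians 4.61 and 5.63. Over all regions the ON-BC medians were 32.8 and 33.7, the OFF-BC medians 25.6 and 23.4, the rod medians 7.79 and 8.81, the blue cone medians 14.2 and 14.5, and that of either green cone library 16.9. In the pan-BC libraries, which were not used for the choice, the median bipolar-only region had 55.2 and 70.1 normalised reads, against 29.6 and 31.9 over all regions. Both pan-BC libraries lay above all 6 photoreceptor libraries at 8917 bipolar-only regions (99.4%), against 46439 (41.9%) of all regions, and this comparison still takes the photoreceptor side from the libraries that chose them.

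**Figure D1:**
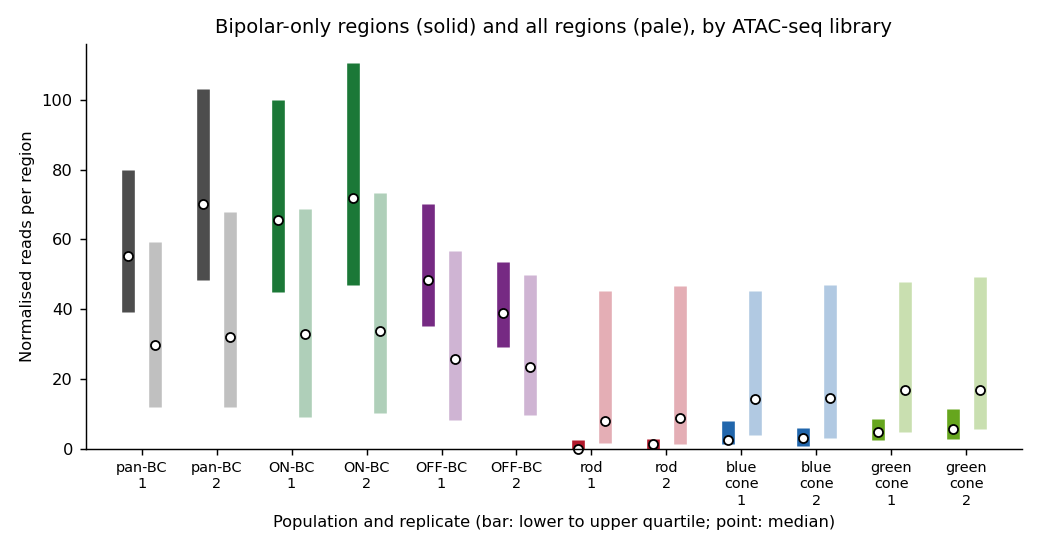
ATAC-seq levels of the 8971 bipolar-only regions (solid) and of all 110715 regions (pale) in each of the 12 libraries, in normalised reads; the bars run from the lower to the upper quartile and the mark is the median. The bipolar-only medians lie between 38.9 and 71.7 in the 6 bipolar libraries and between 0 and 5.63 in the 6 photoreceptor libraries.

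Peaks called in the unused pan-BC libraries covered nearly all bipolar-only regions. The centre of 8755 (97.6%, 95% Wilson interval 97.3 to 97.9) lay in a peak of both pan-BC replicates, of 206 (2.3%) in a peak of 1 and of 10 (0.111%) in a peak of neither. The same share was 58.6% over all regions, 99.6% over regions open in all 5 populations and 5.58% over photoreceptor-only regions. Replicate 1 of pan-BC had a peak at 97.7% of the bipolar-only regions and replicate 2 at 99.8%. The peaks were lower than those of shared regions. At bipolar-only regions the median fold enrichment of the peak summit over the local background was 9.79 and 13.9 in pan-BC, 9.51 and 10.4 in ON-BC and 9.34 and 7.39 in OFF-BC, and at regions open in all 5 populations it was 14.7 and 17.2, 13.7 and 13.9, and 15.4 and 14.5.

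The double-sorted green cones are the other unused ATAC-seq libraries. They had a peak at 558 bipolar-only regions (6.22%) in replicate 3 and at 60 (0.669%) in replicate 4, with 18 (0.201%) in both. A peak in either replicate covered 6.69% of bipolar-only regions, 43.4% of all regions and 79.6% of photoreceptor-only regions. The 600 bipolar-only regions with such a peak had median levels of 9.99 and 11.3 in single-sorted green cones and of 7.77 and 7.23 in blue cones, against 4.61 and 5.63 and 2.59 and 2.89 for the others. Of the regions named here, those of *Isl1* and *Gabrr1* each had a peak in 1 of the double-sorted libraries, and their levels in single-sorted green cones were 2.31 and 0 and 6.92 and 8.45.

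The choice rests on peak calls, so the regions at its edge are given as well. Of the 4 bipolar peaks that each bipolar-only region needed, the weakest had a median −log10 q of 8.40, with quartiles of 5.66 and 13.9, and 265 regions (2.95%) had a weakest peak under 3. The lowest value, 1.40, belonged to regions nearest to *Tacr3* (chr3:134980084-134980284), *Slc7a14* (chr3:31238029-31238229) and *Gm10440* (chr5:54338678-54338878), whose pan-BC levels were 18.4 and 26.2, 25.6 and 41.1, and 36.8 and 35.4. Just outside lay 1773 regions with all 4 bipolar peaks and 1 photoreceptor peak, which was blue cone replicate 2 in 730 and green cone replicate 1 in 632 of them. Their median of the mean pan-BC level was 60.4, beside 63.0 for the bipolar-only regions. Another 5842 regions had 3 bipolar peaks and no photoreceptor peak, with a median of 38.1, and in 3147 of them the missing peak was that of OFF-BC replicate 2.

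Bipolar-only regions lay far from promoters. A region counted as a promoter when its centre lay no more than 1000 bp before or 100 bp after a TSS, which held for 563 bipolar-only regions (6.28%), for 14.9% of all regions, for 57.1% of regions open in all 5 populations and for 6.54% of photoreceptor-only regions. Introns held 40.0% of bipolar-only regions, exons 5.87% and intergenic sequence 54.2%, against 46.3%, 7.98% and 45.8% of all regions. The median distance to the nearest TSS was 45.4 kb (quartiles 14.1 and 125 kb), against 20.5 kb over all regions, 14.5 kb for photoreceptor-only regions and 0.177 kb for regions open in all 5 populations.

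The strongest and best-known regions showed the same split between bipolar cells and photoreceptors library by library. The *Trpm1* promoter region, at chr7:64153724-64153924, had pan-BC levels of 80.0 and 99.2, ON-BC levels of 88.1 and 101 and OFF-BC levels of 40.4 and 29.2, and rod levels of 0 and 0, blue cone levels of 5.18 and 1.45 and green cone levels of 1.54 and 5.63. OFF-BC were the lowest bipolar libraries here, as they were at the median bipolar-only region. The bipolar and photoreceptor libraries did not overlap, which the choice of the regions favours.

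Some intergenic regions reached higher levels than this promoter. The *Isl1* region, at chr13:116508954-116509154, had pan-BC levels of 178 and 253, ON-BC levels of 229.9 and 255 and OFF-BC levels of 143 and 84.7. In the photoreceptors it had rod levels of 0 and 1.36, blue cone levels of 3.89 and 0 and green cone levels of 2.31 and 0. *Isl1* encodes a LIM homeodomain factor of ON bipolar cells, and its region was open in OFF-BC as well, which the choice required. The *Grik1* region had pan-BC levels of 85.6 and 120.3, ON-BC levels of 116 and 73.2 and OFF-BC levels of 93.0 and 98.3, and rod levels of 0 and 0, blue cone levels of 2.59 and 0 and green cone levels of 3.07 and 0. *Grik1* encodes a kainate receptor subunit of OFF bipolar cells, and the ON-BC and OFF-BC levels of its region overlapped.

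The *Gabrr1* region had pan-BC levels of 107 and 151, ON-BC levels of 112 and 141 and OFF-BC levels of 72.7 and 65.2, and no more than 8.45 in any photoreceptor library. *Gabrr1* encodes a subunit of the ionotropic GABA receptors that receive amacrine inhibition on bipolar terminals. The *Neurod4* region had pan-BC levels of 77.6 and 65.6, ON-BC levels of 108 and 89.3 and OFF-BC levels of 53.9 and 38.9, and its highest photoreceptor value was 11.7. The *Bhlhe23* region had pan-BC levels of 104 and 95.2, ON-BC levels of 88.1 and 99.6 and OFF-BC levels of 31.0 and 53.5, and at most 2.82 in photoreceptors. *Neurod4* and *Bhlhe23* encode bHLH factors of bipolar cells. The *Vsx1* region had pan-BC levels of 36.0 and 50.2, ON-BC levels of 53.8 and 57.1 and OFF-BC levels of 35.0 and 30.2, the *Lhx3* region pan-BC levels of 42.4 and 42.8, ON-BC levels of 32.8 and 39.5 and OFF-BC levels of 16.2 and 46.7, and the highest photoreceptor values were 1.54 and 9.22. OFF-BC replicate 1 at the *Lhx3* region was the lowest bipolar value among these 8 regions.

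**Figure D2:**
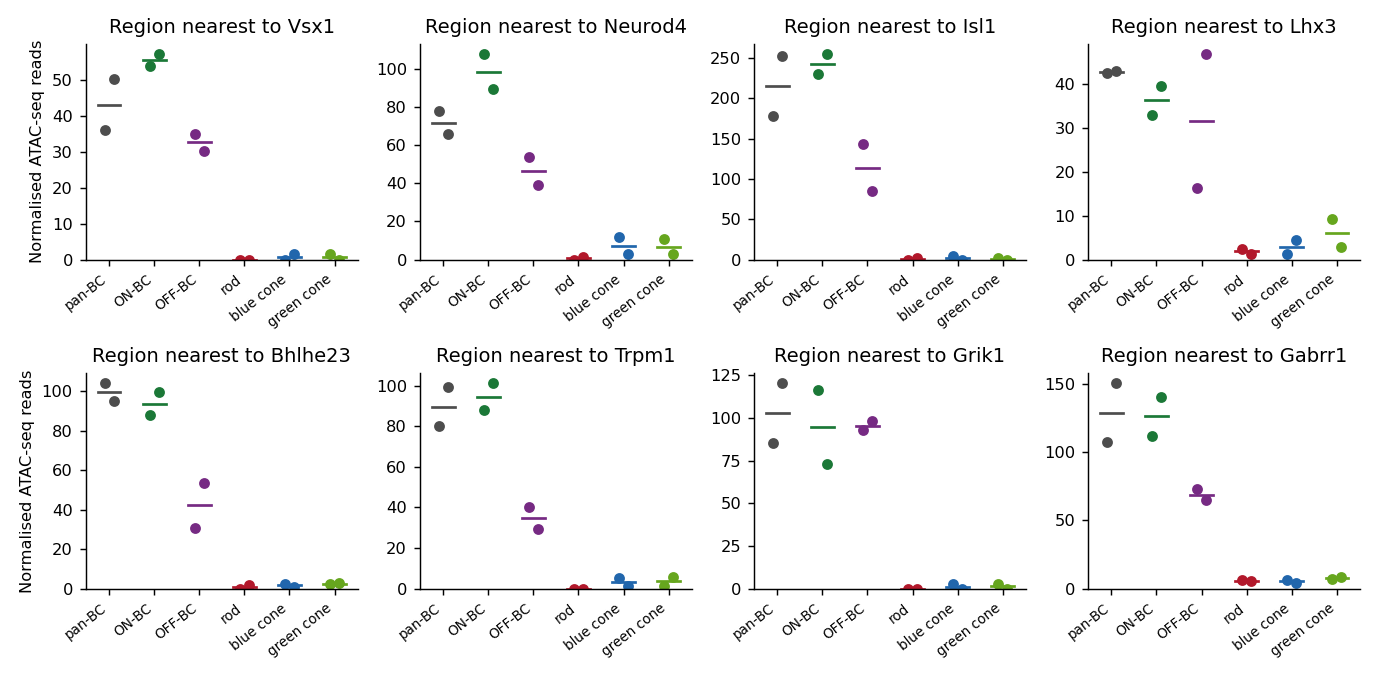
ATAC-seq levels, in normalised reads, of the 8 bipolar-only regions named for their genes, 1 panel per region and 1 point per library, by population. At each region every bipolar library lies above every photoreceptor library, which the choice of the regions favours; the widest gap is at *Isl1*, where the lowest bipolar library had 84.7 and the highest photoreceptor library 3.89.

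The 10 strong regions outside promoters had mean pan-BC levels from 249 to 349. Those of *Sema3d* and *Nkain3* lay only 307 and 583 bp after the TSS, past the promoter limit of 100 bp. All 10 had a peak in both pan-BC libraries and none in the double-sorted green cones. The *Sema3d* region, in the first exon of this secreted guidance factor, had pan-BC levels of 309.6 and 388, ON-BC levels of 434 and 395 and OFF-BC levels of 230.4 and 138, and rod levels of 0 and 0, blue cone levels of 9.07 and 0 and green cone levels of 14.6 and 5.63. The *Gpm6a* region had pan-BC levels of 262 and 397, ON-BC levels of 424 and 387 and OFF-BC levels of 287 and 116, and at most 9.22 in photoreceptors. OFF-BC was below ON-BC at both. The region 53.5 kb from the TSS of *Bdnf*, a neurotrophin, had 345 and 388 in ON-BC and 48.5 and 30.2 in OFF-BC, the lowest OFF-BC values of the 10. The others were nearest to *Gm20754*, to *Schip1* (2 regions), and to *Nkain3*, *2610316D01Rik*, *Fgf13* and *Efnb2*, the last encoding an ephrin.

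Across the 8971 regions the ON-BC level was mostly the higher of the 2. The median log2 ratio of ON-BC to OFF-BC was 0.60 with quartiles of 0.19 and 1.05, against 0.15 over all regions, and scaling the libraries by TMM or by their totals shifted the median of all regions by -0.21 and -0.29 and lowered that of the bipolar-only regions to 0.37 and 0.30. By limma against a log2 fold change of 1, 17 bipolar-only regions (0.189%) were higher in ON-BC and 0 were higher in OFF-BC, where 3.35% and 2.13% of all 108448 tested regions were called. At an unadjusted p under 0.05 the same fit gave 242 and 0. With edgeR and the same fold change, 222 bipolar-only regions had the higher level in the ON population and 1 had it in the OFF population, and with DESeq2 131 and 0. The choice required peaks in both populations, so nothing is read from these counts. At other settings the total ranged from 1 to 223.

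The RNA-seq libraries were not used for the choice, and each gene nearest to a bipolar-only region was compared between populations with limma's treat against a log2 fold change of 1, on log2 of the normalised reads plus 1, with Benjamini-Hochberg adjustment over all 14024 genes tested. Such genes were more often higher in pan-BC than genes at large. The regions had 5158 nearest genes, of which 4643 were listed in the RNA-seq table and 2858 passed the filter on low counts. A gene could pass this filter through pan-BC alone, so the shares over the listed genes, tested or not, are given too.

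Against rods, 1368 of the 2858 genes (47.9%) were higher in pan-BC and 311 (10.9%) lower, where 27.8% and 15.8% of all genes tested were called. Against blue cones, 1172 (41.0%) were higher and 288 (10.1%) lower, beside 22.7% and 13.7%. Higher than in both were 1058 genes (37.0%) and lower than in both 180 (6.30%), beside 18.8% and 8.91%. Over the listed genes, 22.8% of those nearest to a bipolar-only region and 10.9% of all were higher than in both. The median log2 fold change of the nearest genes was 1.46 against rods and 0.98 against blue cones, beside 0.21 and 0.16 for all genes tested. With genes at 0 in every rod or blue cone library set at their bound (a floor of 3 counts over the 3 libraries), those medians moved by less than 0.01. Scaling to library totals raised the medians of all genes by 0.34 and 0.28 and those of the nearest genes to 1.79 and 1.25.

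The share was larger among genes with more bipolar-only regions. Of 11166 tested genes with none, 14.1% were higher in pan-BC than in both photoreceptor types, of 1728 with 1 it was 29.6%, of 963 with 2 to 4 it was 45% and of 167 with 5 or more it was 67.7%. Lower than both were 9.57%, 6.60%, 6.65% and 1.20%. Genes with many bipolar-only regions also had more regions of any kind, with medians of 3, 7, 11 and 24, so the shares were taken again among genes with 10 to 19 regions, where they were 14.7%, 28.7%, 42.0% and 75.4%. Among genes with 20 or more regions they were 12.7%, 15.3%, 39.0% and 61.8%.

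**Figure D3:**
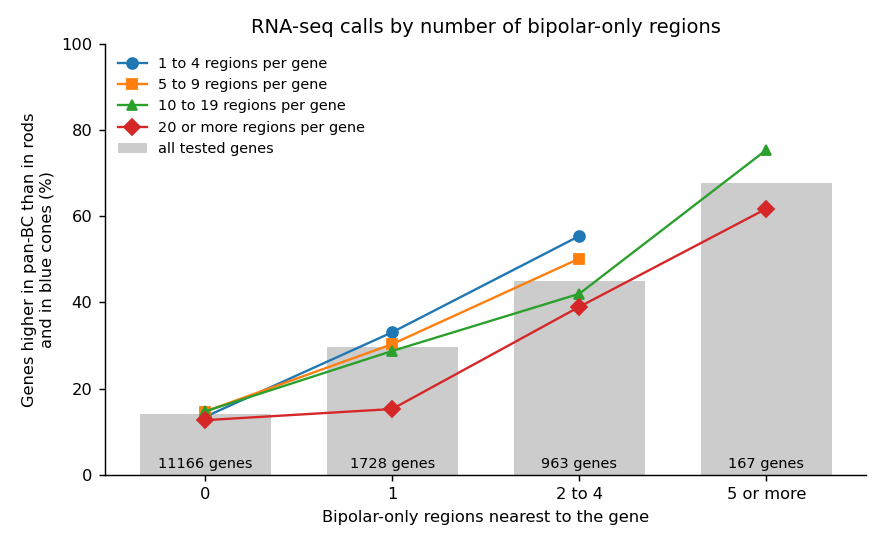
Share of tested genes whose RNA was higher in pan-BC than in both rods and blue cones, in percent, by the number of bipolar-only regions nearest to the gene (0, 1, 2 to 4, 5 or more); the bars are all tested genes and the lines are genes with similar numbers of regions of any kind, where a group held at least 20 genes. The bars rise from 14.1% to 67.7%.

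Regions at promoters went with the highest share. Of 404 bipolar-only promoter regions whose nearest gene was tested, 313 (77.5%) had a gene higher than in both photoreceptor types, against 17.1% of all promoter regions. The share was 51.0% for bipolar-only regions within 10 kb of the TSS outside promoters, 37.8% from 10 to 100 kb and 46.0% farther away, against 22.0%, 23.3% and 39.0% of all regions at these distances. By quartile class of the mean pan-BC level, from the lowest to the highest, it was 38.7%, 42.5%, 46.8% and 52.3%. Taken over regions, 45.1% of the bipolar-only and 10.1% of the photoreceptor-only regions with a tested nearest gene had one higher than in both photoreceptor types, and 5.43% and 22.6% had one lower than in both.

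Of 28 bipolar transcription factor genes, 12 (42.9%) had a bipolar-only region, against 24.7% of all genes with a region of any kind. Of the list's 329 regions 8.51% were bipolar-only, near the 8.10% of all regions. The 12 genes were all higher in pan-BC than in both photoreceptor types. Beside this list and those below, the same held for 18.8% of all tested genes and 37.0% of tested genes nearest to a bipolar-only region. In the whole list, genes without a bipolar-only region included, 21 were higher and 2 lower, with median log2 fold changes of 5.99 against rods and 4.32 against blue cones (4.51 with 1 gene at 0 in blue cones at its bound).

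*Isl1*, with 5 bipolar-only regions among its 23, had the most of the list. Its RNA was 24003, 21506 and 20848 in pan-BC, against 56.3, 60.4 and 153 in rods and 81.2, 93.3 and 291 in blue cones. In ON-BC it was 24419, 28016 and 26357 and in OFF-BC 343, 162 and 1329. The difference between ON-BC and OFF-BC was 5.96 ± 0.58 on the log2 scale (adjusted p 8.04e-06 by limma). The gene was thus far higher in the ON population. Its 5 bipolar-only regions were open in both populations, which the choice required, and its other regions are not described here. *Nfib* and *St18*, with 4 regions each, followed. *Nfib*, a nuclear factor I gene, was 5.38 and 3.24 higher in log2 than in rods and blue cones and was called higher in OFF-BC, with -1.70 (adjusted p 0.0123 by limma), a call lost without ON-BC replicate 1, OFF-BC replicate 1 or OFF-BC replicate 2 (adjusted p 0.000256 to 0.0916 over 14 alternatives). *St18*, a zinc finger gene, was 8.30 and 7.88 higher and was higher in ON-BC by 5.28 (adjusted p 6.94e-05 by limma).

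The bHLH gene *Neurod4* had 19301, 16828 and 17367 normalised reads in pan-BC, against 127, 155 and 244 in rods and 445, 565 and 832 in blue cones. The log2 fold changes of *Neurod4* were 6.71 ± 0.22 (SE) against rods and 4.90 ± 0.22 against blue cones, with adjusted p of 3.54e-13 and 1.13e-10 by limma. *Bhlhe23* had 2113, 2007 and 1959 in pan-BC, against 3.88, 8.19 and 10.8 in rods and 6.77, 4.55 and 5.92 in blue cones. Both were separated from both photoreceptor types in every library. *Vsx1* had 851, 631 and 901 in pan-BC, against 0, 3.07 and 2.16 in rods and 0.752, 9.86 and 2.22 in blue cones, and *Lhx3* had 611, 845 and 837 in pan-BC, against 0.970, 0 and 3.24 in rods and 14.3, 0 and 18.5 in blue cones. For these genes the photoreceptor values rest on few reads, and the addition of 1 before the logarithm understates the fold change. *Otx2*, which has no bipolar-only region and is expressed in both classes, differed by 0.47 from rods and 0.50 from blue cones and was not called.

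The ON cascade holds the receptor, G protein and channel genes of the ON light response. Of 16 genes, 4 (25.0%) had a bipolar-only region, against 24.7% of all genes with a region of any kind. Of the list's 139 regions 5.04% were bipolar-only, below the 8.10% of all regions. The 4 were *Trpm1* (3), *Car8* (2), *Gpr179* and *Rgs7* (1 each), and 3 of the 4 were higher than in both photoreceptor types. Over the whole list 11 of the 16 were higher and 2 lower, with medians of 7.23 and 4.88. *Trpm1* RNA was 52133, 47907 and 51554 in pan-BC, against 97.0, 122 and 197 in rods and 219, 214 and 386 in blue cones. Between ON-BC and OFF-BC it was 59198, 59744 and 51664 against 5930.2, 5394 and 7567, a log2 difference of 3.19 ± 0.23 (adjusted p 2.61e-06 by limma). *Car8*, which encodes a protein related to carbonic anhydrases, was 7.44 higher in log2 than in rods and 1.29 higher than in blue cones, where it was not called (adjusted p 0.503 by limma). *Grm6* itself, without a bipolar-only region, was 7.02 and 6.11 higher.

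Genes of ionotropic glutamate receptors, which receive the photoreceptor signal in OFF bipolar cells, and of their auxiliary subunits carried such regions at 14 of 21 genes. Of the list's 160 regions 17.5% were bipolar-only, against 8.10% of all regions. The 12 genes with such a region that were tested were higher than in both photoreceptor types, beside 37.0% of all tested genes nearest to a bipolar-only region. The whole list had 15 higher and 0 lower of 17 tested, with medians of 5.64 and 4.89 (5.64 and 5.31 with the genes at 0 in photoreceptors at their bound). *Grik1*, with 3 regions, had 6096, 7308 and 7833 in pan-BC, against 18.4, 29.7 and 131 in rods and 345, 378 and 432 in blue cones. Its RNA was 458, 568 and 382 in ON-BC and 50164, 37690.0 and 28558 in OFF-BC, -6.35 ± 0.45 in log2 (adjusted p 2.26e-07 by limma). The printed *Grik1* region had ON-BC and OFF-BC levels that overlapped, while the RNA levels did not. *Grin3a*, an NMDA receptor subunit with 4 regions, had means of 615 in ON-BC and 25.6 in OFF-BC (5.04, adjusted p 7.07e-04 by limma). *Grik2*, also with 4, was listed at 0 in all 6 rod and blue cone libraries, at 0, 7.84 and 5.13 in ON-BC and at 93.9, 177 and 153 in OFF-BC.

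Receptors for GABA and glycine, the transmitters of amacrine cells, had bipolar-only regions at 15 of 19 genes. Of the list's 160 regions 24.4% were bipolar-only, against 8.10% of all regions. Among the 14 tested genes with such a region, 11 were higher than in both photoreceptor types, beside 37.0% of all tested genes nearest to a bipolar-only region. In the whole list 16 genes were tested, and the same 11 were higher and 0 lower, with medians of 6.13 and 3.36. *Gabrr1* RNA was 15499.5, 16325 and 14724 in pan-BC, against 49.5, 58.4 and 76.7 in rods and 135, 171 and 190.2 in blue cones, a log2 fold change of 7.98 ± 0.16 against rods (adjusted p 2.07e-15 by limma), and it differed by -0.04 between ON-BC and OFF-BC. *Gabrb2* (5 regions) and *Gabrb1* (4), which encode GABA-A receptor subunits, had log2 fold changes of 8.10 and 6.41 against rods and 6.32 and 6.73 against blue cones. By limma no gene of this list was called between ON-BC and OFF-BC. *Gabrb1*, at -2.84 (adjusted p 0.0596 by limma), was called higher in OFF-BC in 4 of 14 alternatives, edgeR and DESeq2 among them (adjusted p 3.22e-20 to 0.222), and *Gabrb2* in 1, by edgeR (adjusted p 0.0493).

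Photoreceptors and bipolar cells both release glutamate from ribbon synapses. Of 36 genes of presynaptic release 15 had a bipolar-only region, and 7.12% of the list's 393 regions were bipolar-only, against 8.10% of all regions. Of the 14 tested genes with such a region, 4 were higher and 1 lower than in both photoreceptor types. Over the whole list 12 were higher and 2 lower, with medians of 2.44 and 1.33. *Rims1*, an active zone gene with 7 regions, had means of 151 in pan-BC, against 0.341 in rods and 1.51 in blue cones. *Rims3*, with 3, was not called (adjusted p 1.00 and 0.603 by limma). *Cadps2*, a gene for dense-core vesicle priming with 2 regions, was 5.93 higher in log2 than in rods and differed by -1.07 from blue cones, and was 0, 1.96 and 0 in ON-BC against 567, 460.1 and 389.5 in OFF-BC.

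Synaptic adhesion genes, which encode the proteins that hold and specify synapses, had 127 bipolar-only regions at 28 of 40 genes. They have many regions of any kind, and 18% of their 707 regions were bipolar-only, against 8.10% of all regions. All 28 were tested and 23 were higher than in both photoreceptor types, beside 37.0% of all tested genes nearest to a bipolar-only region. Of the 37 tested genes of the list, those without such a region included, 30 were higher and 0 lower. The medians were 6.00 and 4.08 (6.00 and 4.54 with the genes at 0 at their bound). *Tenm4*, a teneurin with 13 regions, was 7.30 and 4.54 higher in log2 than in rods and blue cones. *Nlgn1*, a neuroligin with 12, was 5.48 and 6.35 higher. *Cntnap2*, a contactin-associated gene with 11, was 7.64 and 6.81 higher, and in ON-BC it was 5008, 4599 and 4820.3 against 436, 508 and 772 in OFF-BC (3.11, adjusted p 1.65e-04 by limma). *Nlgn1* was called higher in OFF-BC (-2.86, adjusted p 0.0349 by limma), but not in 7 of 14 alternatives, among them leaving out any OFF-BC library and ON-BC replicates 1 or 3 (adjusted p 5.44e-09 to 0.164).

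Potassium channel genes had 54 bipolar-only regions at 19 of 27 genes. Of the list's 350 regions 15.4% were bipolar-only, against 8.10% of all regions. Among the 15 tested genes with such a region, 13 were higher than in both photoreceptor types, beside 37.0% of all tested genes nearest to a bipolar-only region. Of the 23 tested genes of the list, those without such a region included, 17 were higher and 0 lower, with medians of 5.96 and 5.26. *Kcna4*, a gene for a voltage-gated A-type channel with 9 regions, had means of 316 normalised reads in pan-BC, against 1.40 in rods and 8.69 in blue cones. *Kcnd2*, with 5, was 313, 362 and 354 in pan-BC and listed at 0 in all rod and blue cone libraries. *Kcnq3*, with 5, was listed at 0 in all 15 libraries, so its regions had no RNA value to set beside them. The gene is listed in the RNA-seq table, and why its values were 0 was not tested.

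**Figure D4:**
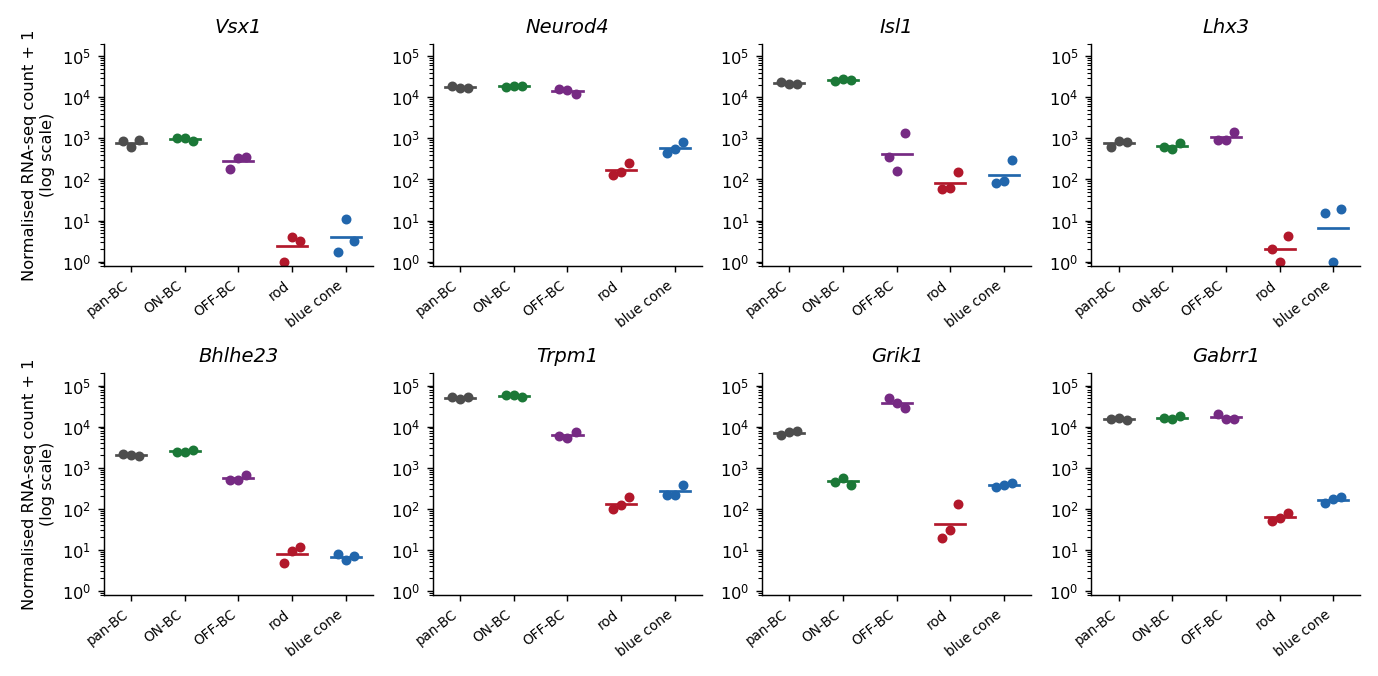
RNA-seq levels, as normalised reads plus 1 on a logarithmic axis, of the 8 genes whose bipolar-only regions are shown, 1 panel per gene and 1 point per library, with a line at the geometric mean of each population. All pan-BC libraries lie above all rod and blue cone libraries in each panel, and *Isl1* and *Grik1* separate ON-BC from OFF-BC in opposite directions.

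The 10 genes with the most bipolar-only regions were *Pcdh9* and *Stxbp6* with 15 each, *Lrrc4c* and *Tenm4* with 13, *Celf4* and *Nlgn1* with 12, and *Cntnap2*, *Nsun3*, *Rapgef2* and *Schip1* with 11, a number that *Vav3* also had. *Pcdh9*, a protocadherin, had 9424, 6925 and 9635 normalised reads in pan-BC, against 34.9, 29.7 and 45.4 in rods and 62.4, 44.0 and 107 in blue cones (7.85 ± 0.24 in log2 against rods, adjusted p 1.54e-13 by limma). Of its 15 regions 12 lay inside the gene, up to 983 kb from the TSS, and 14 had peaks in both pan-BC libraries. *Lrrc4c*, *Celf4* and *Schip1* were higher than in both photoreceptor types too, by 5.72, 3.34 and 7.25 in log2 against rods.

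Of these 10 genes, 3 were not called higher in pan-BC. *Stxbp6* had 0, 2.02 and 7.34 normalised reads in pan-BC and too few anywhere to be tested, although its 15 regions all had peaks in both pan-BC libraries, with mean levels from 24.1 to 157. *Nsun3* was lower in pan-BC than in blue cones (-2.08, adjusted p 7.94e-04 by limma), with -1.51 against rods (adjusted p 0.0584, and 0.00617 to 0.487 over 14 alternatives), and its 11 regions lay 13.1 to 811 kb from its TSS, 10 of them intergenic. *Rapgef2* was not called, at 0.68 and 1.27, although scaling to library totals called it higher than in blue cones (adjusted p 0.0127 by limma, and 0.0127 to 0.416 over 14 alternatives). The nearest TSS is a rule of position, and whether a region acts on that gene was not tested.

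Of 30 photoreceptor genes, 4 (13.3%) had a bipolar-only region, among them *Cnga3* (2), and 0 of the 4 were higher and 2 lower than in both photoreceptor types, with 0 higher and 14 lower over the list and medians of -4.53 and -3.47. Müller glia markers had a region at 4 of 12 genes with 1 of the 4 higher than in both, amacrine markers at 5 of 12 with all 4 tested higher, ganglion cell markers at 1 of 10 (*Thy1*, higher), horizontal cell markers at 2 of 6 with 1 higher (*Slc4a3*), and microglia and vessel markers at 4 of 9 with 0 of 2 tested higher.

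The summed level of the 12 amacrine markers was 12262 to 13772 in pan-BC, 2177 to 2529 in rods and 1435 to 1655 in blue cones. *Meg3*, which neurons express widely, made up 11530.0, 11854 and 13056 of the pan-BC sums, while *Gad1* was 71.3, 55.5 and 55.1 and *Slc32a1*, the vesicular GABA transporter gene, 0, 5.04 and 2.45. The sums for Müller glia were 7673 to 9190.0 in pan-BC, 2214 to 3588 in rods and 13912 to 17309 in blue cones, for ganglion cells 382 to 414, 42.7 to 71.3 and 183 to 226, for horizontal cells 3883 to 5672, 41.0 to 84.3 and 207 to 299.8, and for microglia and vessels 40.4 to 64.9, 219 to 275 and 393 to 783. *Ndnf* made up 5001, 3220.0 and 4511 of the horizontal cell sums, with *Lhx1* at 1.06, 0 and 0. The part of other cell types in the results was not tested.

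Between ON-BC and OFF-BC, 174 of the 2858 nearest genes (6.09%) were higher in ON-BC, while 193 (6.75%) were higher in OFF-BC, beside 2.95% and 3.6% of all genes tested. Their median log2 difference was -0.03, beside -0.02 over all genes. By number of bipolar-only regions, 4.94% of genes with none were called in either direction, 11.0% with 1, 15.5% with 2 to 4 and 16.8% with 5 or more. Among genes with 10 to 19 regions of any kind these shares were 9.43%, 14.3%, 14.8% and 18%, and among genes with 20 or more they were 14.8%, 8.40%, 18.6% and 16.7%, with no steady rise. Regions open in both populations thus included some nearest to genes whose RNA differed between them, as with *Isl1*, *Trpm1* and *Grik1*.

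The letters of the regions were compared with those of the other classes. They are given outside promoters, for 8408 bipolar-only, 94195 of all, 7852 shared and 1743 photoreceptor-only regions, and a match on either strand counts. E-boxes were more frequent in bipolar-only regions. CANNTG occurred in 80.4% of them, 72.6% of all, 65.5% of those open in all 5 populations and 64.9% of photoreceptor-only regions. CAGATG, 1 of the CANNTG forms, occurred in 38.6%, 25.0%, 18.6% and 15.5%, and CAGCTG, another, in 27.6%, 19.1%, 17.9% and 13.4%. CATATG was rare, at 4.56%, 3.96%, 2.39% and 3.04%. With promoters included, 8.90% of bipolar-only regions held at least 2 CAGATG, against 3.55% of all.

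The K50 letters TAATCC were less frequent in bipolar-only regions. They occurred in 14.7% of bipolar-only regions, 24.6% of all, 19.2% of shared and 46.4% of photoreceptor-only regions. The Q50 letters, TAATTA or TAATTG, occurred in 11.1%, 12.8%, 7.04% and 16.1%. The CTCF core, AGGGGGC or AGGTGGC, was found in 13.7%, 13.0%, 22.3% and 8.89%, the MEF2 core CTATTTNTA in 1.89%, 1.86%, 1.59% and 1.78%, and the nuclear receptor motif AGGTCA in 14.8%, 17.1%, 14.0% and 22.1%. These matches are a count of letters and do not show that a protein is bound.

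**Figure D5:**
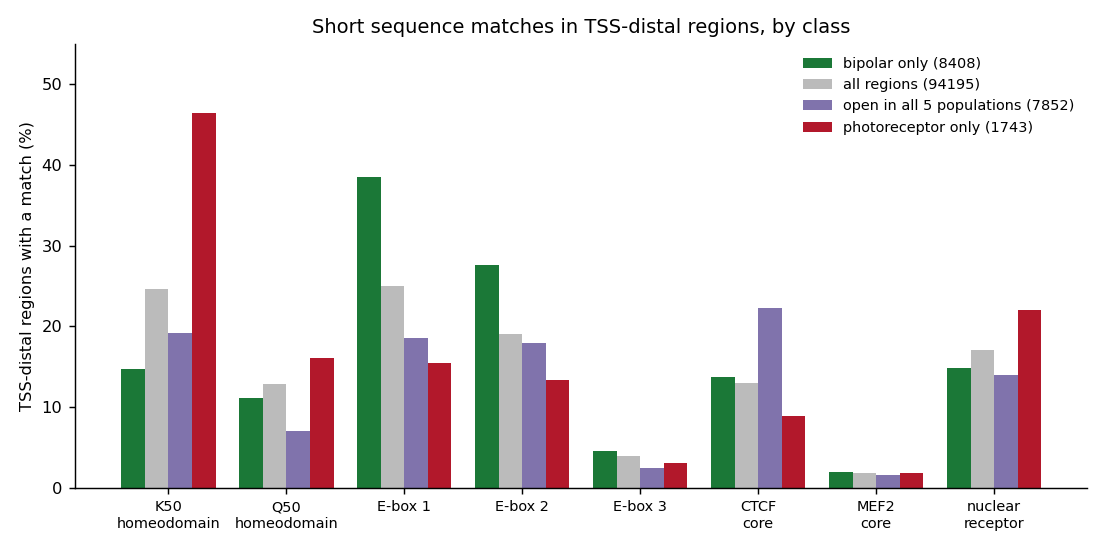
Share of regions outside promoters, in percent, that hold each set of letters, for bipolar-only regions, all regions, regions open in all 5 populations and photoreceptor-only regions. E-box 1 stands for CAGATG, E-box 2 for CAGCTG and E-box 3 for CATATG. E-box 1 is highest in bipolar-only regions (38.6%) and K50 is highest in photoreceptor-only regions (46.4%).

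Base content differs between these classes, so the shares were taken again at matched content. The median GC content over all positions was 48.3% for bipolar-only, 50.2% for all, 62.7% for shared and 48.8% for photoreceptor-only regions. At a GC content of 45 to 50% outside promoters, CAGATG was in 39.2% of bipolar-only, 26.6% of all, 24.6% of shared and 17.0% of photoreceptor-only regions, and TAATCC in 15.9%, 29.1%, 33.0% and 50.3%. The Q50 letters were in 11.2%, 13.8%, 13.7% and 18.5%. Their bipolar-only share was also below the shared one at 40 to 45% GC (14.5% against 16.7%) and under 40% (18.4% against 21.3%). At 50 to 55% it was above the shared one (8.07% against 7.85%), and so it was from 55% (5.41% against 3.08%). Under 40% GC the bipolar-only and overall shares of CAGATG were 24.9% and 23.1%. The shares were also taken by quartile class of the mean pan-BC level, with promoters included and base content not matched. From the lowest to the highest class of bipolar-only regions, CAGATG was in 33.5%, 36.0%, 37.6% and 41.4%, and CAGCTG in 24.9%, 23.9%, 26.6% and 33.7%. TAATCC was in 12.2%, 12.9%, 13.6% and 17.4%, and TAATTA or TAATTG in 12%, 11.7%, 10.1% and 8.74%. Promoters made up 4.99% of the lowest class and 8.29% of the highest.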

How the data were processed

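ATAC-seq and RNA-seq of sorted retinal cells were used. According to the methods, the authors used STAR and HTSeq to align and count RNA-seq reads on GRCm38, aligned ATAC-seq reads with Bowtie2, removed duplicates with Picard and called peaks per library with MACS2 (2.1.1). The signal values in the deposited tables are counts that the authors divided by 1 size factor per library, and whole reads were recovered from all values above 0 (1212862 for regions, 230384 for genes, within 0.01 of a read). For each peak the deposited files give a score, a fold enrichment, and the −log10 of the p-value and q-value that the authors' caller computed. The score and the −log10 of p were not used.

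Regions were chosen with the peaks of replicates 1 and 2. The choice of regions, gene lists and tests was made with earlier results of these data known. Each region was assigned to the nearest TSS of 45756 curated RefSeq transcripts of GRCm38, the build of the files, and sequence letters were read from the RefSeq GRCm38 genome. The gene table holds 27 names in the form of dates, which matched no gene. Genes and regions were kept by filterByExpr of edgeR (4.0.16) on the recovered reads (14024 of 24062 genes, 108448 of 110715 regions). Values were tested as log2 of the value plus 1 with limma (3.58.1, R 4.3.3), treat with a trend against a log2 fold change of 1, in 1 model per assay over all libraries, with adjusted p below 0.05 called. Blue and green cones were 1 level for regions. The test was checked on simulated data. Named genes were the 10 with the most regions and the 3 with the most of each list. Named regions were the strongest near 12 bipolar genes and the 10 strongest outside promoters near genes called in RNA. A few genes and 1 region that these rules name are not reported here. Counts by edgeR and by DESeq2 (1.42.0) on the recovered reads, other scalings, pseudocounts and filters, a block for the replicate number and leaving out single libraries were alternatives. Intervals cover counting only.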

Additional observations from a re-analysis of the deposited data

Results flagged for a closer look

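Double-sorted green cones, whose peaks took no part in the choice of the bipolar-only regions, had peaks at some of them. Replicate 3 had a peak at 558 of the 8971 regions (6.22%) and replicate 4 at 60 (0.669%). Both are flagged because they are a signal in libraries that no comparison used, at regions without a peak in single-sorted green cones. Over all regions, replicate 3 had a peak at 40.0% and replicate 4 at 27.4%, and over photoreceptor-only regions at 67.9% and 53.2%. When regions with such a peak were left out, 8371 remained.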

How the results depend on the processing

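Of 125 alternatives to the values that answer a comparison, 104 left the value within its limit and 21 moved it. For shares the limit was the Wilson interval of the main value. A reversal was not among the outcomes scored for these values, so nothing is read on their direction. For named genes 2198 alternatives kept the call, 18 gained one and 10 lost one, the last all for *Nlgn1* and *Nfib* between ON-BC and OFF-BC. The number of regions was 12420 to 14843 from a single replicate, where 1 peak made a population open and the lack of 1 made it closed. The share with both pan-BC peaks was 98.0% with peaks of a −log10 q of at least 5. From a single replicate only 1 pan-BC peak was asked for, and the share was 93.4% to 98.9%. The promoter share was 6.83% with the stronger peaks, 7.31% within 500 bp of a TSS and 6.08% to 6.69% from a single replicate. The CTCF core was in 14.7% with the stronger peaks, and outside promoters E-boxes were in 80.4% and CAGATG in 38.6%. The 17 regions called between ON-BC and OFF-BC in ATAC-seq became 9 with the stronger peaks, 223 by edgeR, 131 by DESeq2, 9 with TMM scaling, 8 with scaling to totals, 6 with a pseudocount of 0.5, 134 with a pseudocount of 4, 45 with separate cone levels and 1 to 6 without single libraries, and the cause was not tested. Leaving out single libraries gave 1343 to 1365 nearest genes higher than in rods, 1133 to 1165 higher than in blue cones and 308 to 353 called between ON-BC and OFF-BC (367 with all). Over 24 settings the nearest genes were called higher than rods in 35.8% to 51.0% and all genes in 21.1% to 32.1%, with 30.5% to 44.4% and 17.0% to 26.4% for blue cones and 9.52% to 17.3% and 4.83% to 8.74% for ON-BC against OFF-BC. Scaling to totals raised the share of higher among called genes from 63.8% to 74.0% against rods for all genes and from 81.5% to 85.8% for the nearest genes, and lowered the share higher in ON-BC among called regions from 61.1% to 45.3% (49.2% with TMM). ON-BC and OFF-BC share replicate numbers, and libraries with the same number also share the postnatal day. The deviations of same-numbered libraries had correlations of -0.08, 0.22 and -0.06 in RNA-seq and 0.0002 in ATAC-seq, and only number 2 in RNA-seq correlated best with its own number. A replicate block gave 1368, 1172 and 366 nearest genes and 15 regions and changed no call of a named gene between ON-BC and OFF-BC. In ATAC-seq, 4176776 reads in the smallest library limit what low regions can show.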

Other observations

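Bipolar-only regions lay near one another more often than regions did at large. The nearest other region was bipolar-only for 1747 of them (19.5%), against 7.81% of all regions, although their median gap to the nearest region was wider (7.87 kb against 4.15 kb). By chromosome they made up from 4.61% of the regions on chromosome 11 to 11.9% of those on the X chromosome, apart from the Y chromosome with 0 of 24. These values share neighbouring genes and were not tested.

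Some genes with several bipolar-only regions were listed at 0 in every RNA-seq library. Besides *Kcnq3*, the NMDA receptor gene *Grin2a* (3 regions) and the potassium channel gene *Kcnq5* (2) were at 0 in all 15 libraries, and were picked out after their values were seen. Each of these genes is listed in the RNA-seq table, and why the values were 0 was not tested. *Stxbp6* reached 7.34 normalised reads in 1 pan-BC library and 0 in another.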
